A study of Mus musculus with 22 samples.

Results

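Transcripts that belong to red blood cells were followed in mouse fat through 6 genes: the alpha globins Hba-a1 and Hba-a2, the beta globins Hbb-b1 and Hbb-b2, the heme enzyme Alas2 and the membrane protein Slc4a1. They were taken by their gene names in the array files, where each had 1 probe, so that 6 of the array's 55681 probes are described. After names were updated through RefSeq, these are 6 of the 34741 gene names on the array. The tissue was epididymal white adipose tissue, an abdominal fat pad. All mice were C57BL/6JOlaHsd males, of an inbred laboratory strain. They were 10 weeks old on arrival and housed singly. Fat supplied 10% of the energy of their purified feed for the first 3 weeks and, per the labels' growth protocol, 40% for the 6 weeks after that. After fasting, 12 mice stayed in 20.9% oxygen (normoxia) and 10 mice breathed 12% oxygen (hypoxia), each for 6 hours in an indirect calorimetry system. The treatment protocol also speaks of low-fat feeding without naming mice, so diet could not be followed. RNA of each mouse carried the dye Cy5 and was hybridised together with a Cy3-labelled pool of all samples, without a dye swap. Each mouse is therefore 1 array, and a level is the log2 ratio of Cy5 over Cy3 after normalization within the array, called the log2 ratio below.

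Red blood cells carry oxygen in hemoglobin, a protein built of alpha and beta chains, each of which holds a heme group. Mature mammalian red cells have no nucleus and make no new RNA, while the young cells that enter the blood, the reticulocytes, still carry globin messenger RNA from their time in the bone marrow. Alas2 starts heme synthesis in red cell precursors. Slc4a1, also called band 3, exchanges chloride for bicarbonate across the red cell membrane and anchors the membrane skeleton. In fat, as in other tissues with vessels, these transcripts are known chiefly from blood. In a bulk tissue, fewer cells of a type and less RNA per cell cannot be told apart.

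The study labels the tissue as fat, and all 13 adipocyte markers listed for this check were bright enough to be tested. Of the 6 red cell probes, 4 (Hba-a1, Hba-a2, Hbb-b1 and Hbb-b2) were well above background in Cy5 on all 22 arrays. Alas2 was so on 21 arrays and Slc4a1 on 3. None of the 6 was saturated or carried an outlier mark on any array. The array's name Hbb-b1 stands for a transcript that RefSeq now lists as Hbb-bt, one of the adult beta globin genes of C57BL/6 mice. Another, Hbb-bs, is named Beta-s in the files and is given beside the members. Probes of globin copies can bind each other's transcripts, so values are uncertain between copies.

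The probes are 60 bases long, and 2 of them are shown because they report the members with the smallest p in the comparison of oxygen levels. They are written in lower case, since no part of them was singled out.
Hba-a1 probe, chr11:32183955-32184014 of mm9, plus strand: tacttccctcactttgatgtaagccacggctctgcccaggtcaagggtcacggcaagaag
Hbb-b2 probe, no position in the files: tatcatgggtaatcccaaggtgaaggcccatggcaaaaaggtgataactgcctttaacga
The other probes lay on mm9 at chr11:32197245-32197304 for Hba-a2, chr7:110961105-110961164 (minus strand) for Hbb-b1, chrX:147004993-147005052 for Alas2 and chr11:102210256-102210315 (minus strand) for Slc4a1. The exon or UTR under each probe was not determined, since mm9 itself was not used here. The longest run of bases that any of the 5 tested member probes shared with another member probe or the Beta-s probe, on either strand, was 9. Probes were compared only with each other and not with whole transcripts, so binding to another gene's transcript was not tested.

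RefSeq's promoter table held an entry for 3 of the 6 members, Hba-a1, Hba-a2 and Alas2, and for Hbb-bt and Hbb-bs. Promoters are shown for 3 of these genes because their transcripts moved together from mouse to mouse. Each is the 250 bases before the transcript start, with capitals marking 4 short motifs on either strand.
Hba-a1, chr11:32283422-32283671 of GRCm38.p6, plus strand: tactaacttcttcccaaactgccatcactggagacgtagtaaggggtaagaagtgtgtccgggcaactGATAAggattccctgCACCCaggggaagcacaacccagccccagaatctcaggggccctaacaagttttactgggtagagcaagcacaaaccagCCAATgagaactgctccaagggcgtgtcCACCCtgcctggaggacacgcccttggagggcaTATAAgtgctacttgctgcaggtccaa
Hbb-bt, chr7:103813924-103814173 of GRCm38.p6, minus strand: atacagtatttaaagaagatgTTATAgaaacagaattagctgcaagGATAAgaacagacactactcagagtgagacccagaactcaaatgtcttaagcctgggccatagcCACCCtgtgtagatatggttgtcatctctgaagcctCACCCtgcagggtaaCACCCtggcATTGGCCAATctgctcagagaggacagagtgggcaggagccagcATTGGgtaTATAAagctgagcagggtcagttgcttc
Alas2, chrX:150547167-150547416 of GRCm38.p6, plus strand: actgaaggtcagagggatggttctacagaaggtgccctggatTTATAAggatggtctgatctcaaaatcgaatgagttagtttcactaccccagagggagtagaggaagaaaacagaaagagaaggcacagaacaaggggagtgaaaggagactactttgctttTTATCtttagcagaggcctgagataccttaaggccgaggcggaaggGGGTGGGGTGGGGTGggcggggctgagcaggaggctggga
The motifs were GATAA or its reverse TTATC (the core bound by GATA factors such as Gata1), CACCC or GGGTG (the core bound by Klf1 and its relatives), CCAAT or ATTGG, and TATAA or TTATA (the TATA box). All 4 were found in the windows of Hba-a1, Hba-a2, Hbb-bt and Hbb-bs, and all but CCAAT in that of Alas2. A TATAA began 27 bases before the start in Hba-a1, 30 in Hba-a2, 28 in Hbb-bt and 29 in Hbb-bs. In Alas2 it began 207 bases before the start, so the match there is one of letters and not of a TATA box position. Over the 32851 promoters of the table, GATAA was in 22.6%, CACCC in 52.0%, CCAAT in 33.8%, TATAA in 22.8% and all 4 together in 0.968%. In Alas2 the matches TTATA and TATAA overlap by 4 bases, and no other matches overlap. The Hba-a1 and Hba-a2 windows share a run of 297 of 300 bases, counting the 50 bases after the start. A match describes letters only and shows no binding.

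In the comparison of hypoxia with normoxia, all 5 tested members had a higher mean in hypoxia, and none passed the threshold once p-values were adjusted over all probes. The differences ran from 0.28 for Hbb-b1 to 0.60 for Hba-a1 on the log2 scale, with a median of 0.36, against a median of 0.0022 over the 21442 probes tested. A difference above 0 was also found for 50.9% of those probes. By limma with Benjamini-Hochberg adjustment, 0 members passed (background 0%, that is 0 of 21442 probes). At an unadjusted p under 0.05, 3 of the 5 members were higher (Hba-a1, Hbb-b2 and Alas2), where the background was 2.55% of all probes (5.21% in either direction). A difference of at least 0.25 was found for 5 of 5 members and for 1.7% of all probes. That cut lies just under the smallest member difference and takes no account of spread, which was larger for the members than for most probes. By limma's p the members stood at places 56 (Hba-a1), 371 (Hbb-b2), 809 (Alas2), 1231 (Hba-a2) and 1792 (Hbb-b1) of 21442. These counts and places describe members that were chosen with earlier results of these data in view, and carry no test of their own.

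Among the alpha globins, Hba-a1 had log2 ratios from -1.04 to 0.31 in normoxia (median -0.51, 12 mice) and from -0.49 to 1.04 in hypoxia (median 0.17, 10 mice). The groups overlapped, with 4 hypoxia mice above every normoxia mouse and 7 normoxia mice below every hypoxia mouse. Means were -0.42 ± 0.41 (SD, n = 12) and 0.18 ± 0.45 (SD, n = 10), a difference of 0.60 ± 0.17 (SE) or 1.51-fold, with a 95% interval from 0.26 to 0.93. Limma's unadjusted p was 0.00128 and its adjusted p was 0.471, and 9 of 10 hypoxia mice lay above the normoxia mean. Among differences higher in hypoxia, Hba-a1 stood at place 12 of 21442 probes.

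Hba-a2 encodes alpha globin from the neighbouring gene copy. Its log2 ratio ran from -0.14 to 1.21 in normoxia (median 0.21) and from -0.16 to 1.51 in hypoxia (median 0.77). The lowest mouse of all was in the hypoxia group, and only 2 hypoxia mice exceeded the highest normoxia mouse. The means of 0.41 ± 0.47 (SD, n = 12) and 0.77 ± 0.47 (SD, n = 10) differed by 0.36 ± 0.18 (SE; 95% interval -0.01 to 0.73, limma adjusted p = 0.969), which did not pass. The 4 mice of slide 1 (2 of each group) had a mean of 1.08, against 0.18 to 0.57 on the other slides. The other tested members did not have their highest slide mean there.

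Among the beta globins, Hbb-b1 had log2 ratios from -0.29 to 1.00 in normoxia (median 0.18) and from -0.28 to 1.14 in hypoxia (median 0.48). The groups overlapped over nearly their whole ranges, with 1 hypoxia mouse above and 1 normoxia mouse below the other group. Means were 0.20 ± 0.38 (SD, n = 12) and 0.48 ± 0.43 (SD, n = 10), and the difference of 0.28 ± 0.16 (SE; 95% interval -0.04 to 0.60, limma adjusted p = 0.969) was the smallest of the 5.

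Hbb-b2, the second beta globin name on the array, ran from -0.85 to 0.66 in normoxia (median -0.33) and from -0.42 to 0.85 in hypoxia (median 0.20). Most normoxia mice (9 of 12) lay below 0 and most hypoxia mice (6 of 10) above it, with 4 normoxia mice below every hypoxia mouse. Means of -0.24 ± 0.44 (SD, n = 12) and 0.18 ± 0.41 (SD, n = 10) gave a difference of 0.43 ± 0.16 (SE; 95% interval 0.09 to 0.76), with an unadjusted p of 0.0148 and a limma adjusted p of 0.851. RefSeq places the Hbb-b2 transcript on an alternate locus, and the files give its probe no position. Which beta globin transcript this probe bound in these C57BL/6 mice was not determined, so its values may not be those of a separate gene. Hbb-bs, no member, differed by 0.54 ± 0.24 (SE) from -0.47 ± 0.65 to 0.07 ± 0.64 (SD, n = 12 and 10; limma adjusted p = 0.906).

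Alas2, the erythroid enzyme of heme synthesis, ran from -1.17 to 0.13 in normoxia (median -0.39) and from -0.66 to 0.70 in hypoxia (median -0.06). Normoxia replicates 6 and 8 stood lowest, at -1.17 and -1.13, and hypoxia replicate 2 highest. The means of -0.43 ± 0.41 (SD, n = 12) and -0.08 ± 0.40 (SD, n = 10) differed by 0.35 ± 0.16 (SE; 95% interval 0.03 to 0.67), with an unadjusted p of 0.0343 and a limma adjusted p of 0.906. Its nonerythroid counterpart Alas1, which starts heme synthesis in other cells, differed by 0.19 ± 0.12 (adjusted p = 0.986), and the other tested Alas1 probe by -0.03.

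Slc4a1 was well above background on 2 normoxia arrays and 1 hypoxia array and was not tested. Its log2 ratio lay between -0.43 and 0.14 in normoxia and between -0.29 and 0.12 in hypoxia. In the fit without a filter on dim probes its difference was 0.02 ± 0.07 (SE, limma adjusted p = 1). Near background a ratio is compressed, so this value sets no limit on the transcript.

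**Figure D1:**
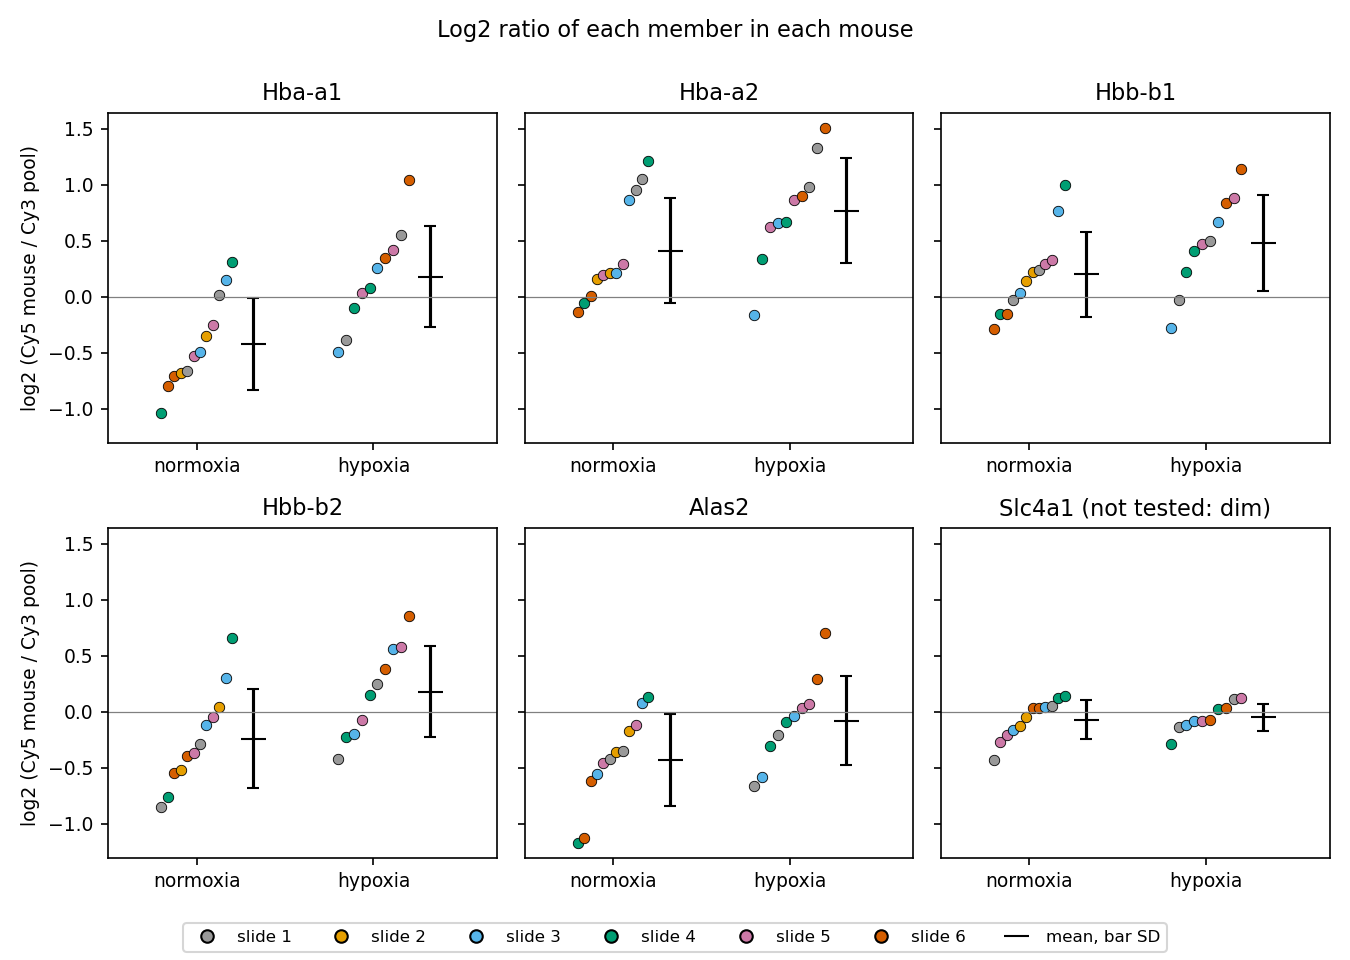
Log2 ratio of Cy5 (mouse) over Cy3 (pool) for each member, 1 point a mouse, ordered within its group and coloured by slide, with the mean and SD of 12 normoxia and 10 hypoxia mice beside them. The groups overlap for every gene; for Hba-a1, 4 hypoxia mice lie above all normoxia mice, and Slc4a1 stays between -0.43 and 0.14.

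The difference varied from slide to slide. The arrays lie on 6 slides, numbered here in the order of their codes. Slides 1, 3, 4, 5 and 6 hold 2 mice of each group, and slide 2 holds normoxia replicates 9 and 10 alone. On slide 6 every tested member was at least 1.09 higher in hypoxia: 1.45 for Hba-a1, 1.27 for Hba-a2, 1.21 for Hbb-b1, 1.09 for Hbb-b2 and 1.37 for Alas2. There, both hypoxia mice lay above both normoxia mice for each of the 5 genes. On slide 3 the same differences were 0.06, -0.28, -0.21, 0.09 and -0.07 in that order of genes, and on slide 4 they were 0.36, -0.07, -0.11, 0.01 and 0.32.

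Hba-a1 and Hbb-b2 were higher in hypoxia on 5 of 5 slides, and Hba-a2, Hbb-b1 and Alas2 on 3 of 5. The lowest slide difference was 0.06 for Hba-a1 (slide 3) and 0.01 for Hbb-b2 (slide 4). The share of all probes that were higher on 5 of 5 slides was not computed. With slide as a block in limma the differences were 0.58 ± 0.19 for Hba-a1 (SE, unadjusted p = 0.00489), 0.43 ± 0.17 for Hbb-b2 and 0.38 ± 0.17 for Alas2, and 0 members passed after adjustment (background 0%). At an unadjusted p under 0.05 these 3 members were higher in that fit, against a background of 2.53%. A test of whether the difference varied over the 5 slides, added after the data were seen, gave unadjusted p-values of 0.0408 for Hba-a2 and 0.0435 for Alas2. For the other tested members they lay between 0.0643 and 0.328. All were 1 after limma's adjustment, and 2.64% of all probes had an unadjusted p under 0.05 there.

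Without slide 6, whose 4 mice hold the largest difference, the median over the 5 members was 0.16 in place of 0.36. Hba-a1 then differed by 0.40 ± 0.17 (SE, unadjusted p = 0.0252, limma adjusted p = 0.69), Hbb-b2 by 0.27 ± 0.18, Hba-a2 by 0.16 ± 0.19, Alas2 by 0.12 ± 0.14 and Hbb-b1 by 0.07 ± 0.15. The difference of Hba-a1 thus kept an unadjusted p under 0.05, and those of Hbb-b2 and Alas2 did not.

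**Figure D2:**
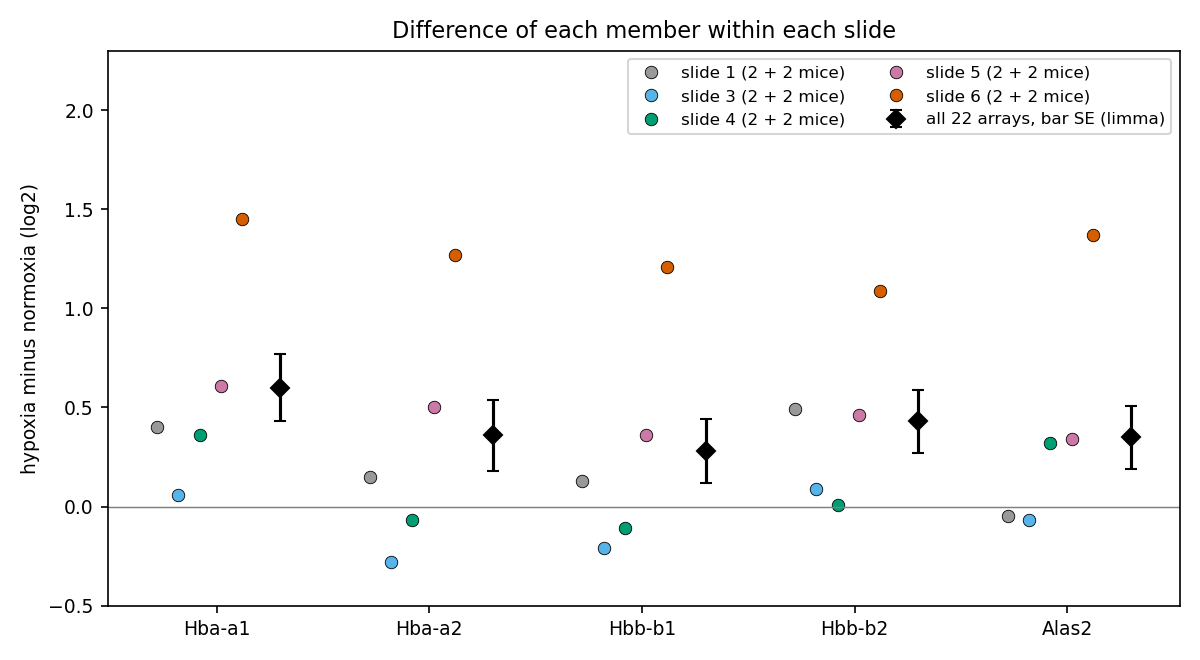
Hypoxia minus normoxia on the log2 scale for each tested member, with 1 point for each slide that holds both groups (means of 2 mice each) and a diamond with its SE for all 22 arrays. Slide 6 lies highest for every gene, between 1.09 and 1.45, while slide 3 lies between -0.28 and 0.09.

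The members moved together from mouse to mouse, Hba-a2 less closely in hypoxia. The mean over the 5 tested members ran from -0.64 to 0.66 in normoxia (-0.10 ± 0.37, SD, n = 12) and from -0.34 to 1.05 in hypoxia (0.31 ± 0.39, SD, n = 10). Hypoxia replicate 2 stood highest at 1.05, followed by normoxia replicate 4 at 0.66 and hypoxia replicate 1 at 0.55. Normoxia replicates 6, 8 and 1 stood lowest, at -0.64, -0.58 and -0.37. All 5 members lay above 0 in hypoxia replicates 1, 2 and 8 and in normoxia replicates 4 and 12. None did in normoxia replicates 6 and 8 and in hypoxia replicate 9.

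Pairs of members were correlated within each group, 20 relations in all. In normoxia (n = 12), Pearson's r ran from 0.47 to 0.90 with a median of 0.75, and in hypoxia (n = 10) from 0.48 to 0.93 with a median of 0.78. The alpha and beta globins Hba-a1 and Hbb-b1 had r = 0.90 and Spearman's rho = 0.91 in normoxia (permutation p = 7e-05 and 0.00013, adjusted p = 0.0012 and 0.0026), and r = 0.77 without the 2 mice farthest from the median. In hypoxia the same pair had r = 0.83 and rho = 0.72 (permutation p = 0.00352 and 0.0235, adjusted p = 0.00782 and 0.0428), and r = 0.60 without 2 mice.

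Alas2 followed Hbb-b1 as closely in hypoxia, with r = 0.93 and rho = 0.92 (permutation p = 0.00012 and 0.00061, adjusted p = 0.0012 and 0.0061), and r = 0.92 without 2 mice. In normoxia that pair had r = 0.85 and rho = 0.81 (permutation p = 0.00127 and 0.00233, adjusted p = 0.00508 and 0.0116), and 0.87 without 2 mice. The weakest pair in both groups was Hba-a2 with Hbb-b2. It had r = 0.47 and rho = 0.57 in normoxia (permutation p = 0.12 and 0.0578, adjusted p = 0.126 and 0.0723) and r = 0.48 and rho = 0.28 in hypoxia (permutation p = 0.163 and 0.425, adjusted p = 0.163 and 0.425), and without 2 mice r was 0.22 and 0.00. In hypoxia Hba-a2 also had rho of only 0.37 with Alas2 and 0.58 with Hba-a1 and with Hbb-b1 (adjusted permutation p = 0.314, 0.0986 and 0.0986). Its r with these genes was 0.58, 0.74 and 0.70 (adjusted permutation p = 0.0847, 0.0196 and 0.0291), and 0.63, 0.29 and 0.13 without 2 mice. With at most 4 arrays a slide, no r within a slide was computed. The points of a pair share their arrays and their normalization.

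**Figure D3:**
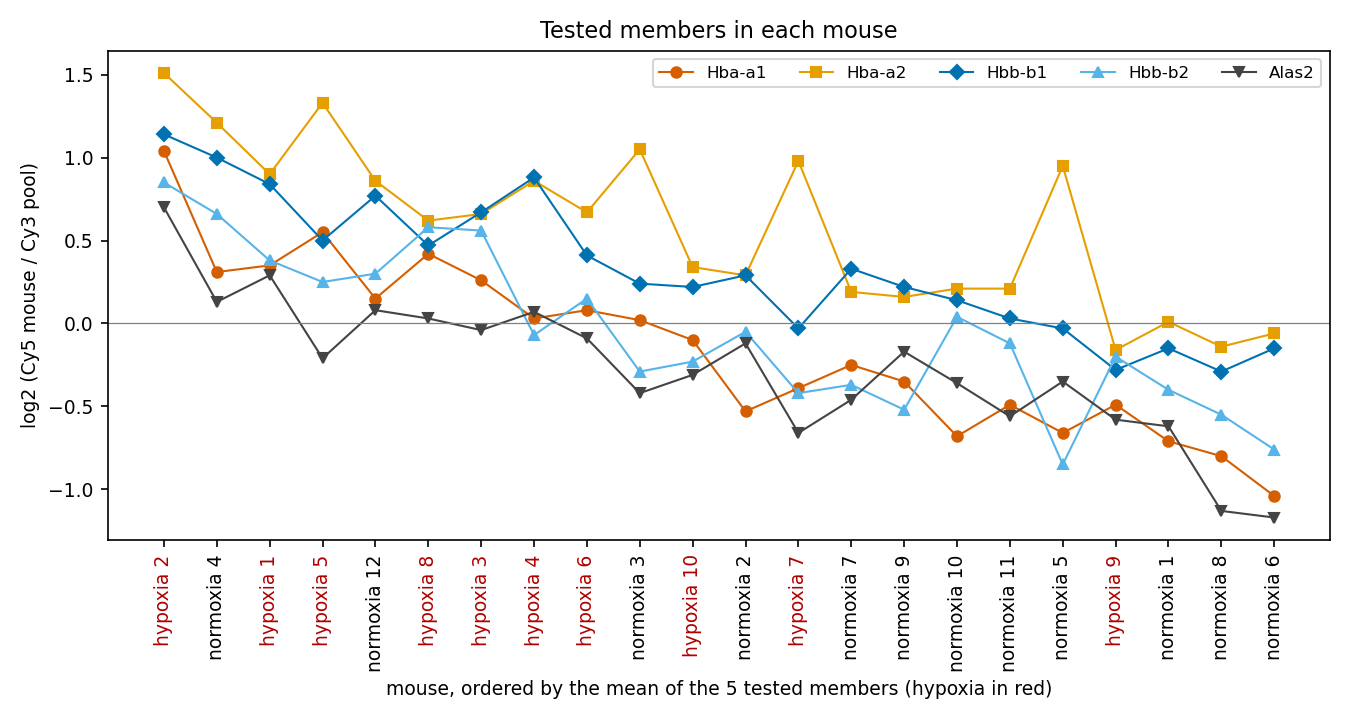
Log2 ratio of the 5 tested members in each of the 22 mice, ordered by the mean of the 5, with hypoxia mice named in red. The lines fall together from hypoxia replicate 2 (mean 1.05) to normoxia replicate 6 (mean -0.64), while Hba-a2 departs upwards in normoxia replicates 3 and 5 and hypoxia replicates 5 and 7, the arrays of slide 1.

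Across all tested probes, these 5 were among the most variable. Their pooled SD within groups was 0.40 to 0.47, larger than that of 94.4% (Hbb-b1) to 96.7% (Hba-a2) of the probes. Before normalization the spread was larger still. The Cy5 signal of Hba-a1 ran from 517 to 53900 intensity units over the 22 arrays, a 104-fold range, while its Cy3 signal from the pool ran from 41000 to 76000, a 1.85-fold range. For Hba-a2, Hbb-b1, Hbb-b2 and Alas2 the Cy5 range was 75.1-fold, 101-fold, 58.4-fold and 31.7-fold, and the Cy3 range 1.65-fold to 1.74-fold. Without slide 1 the Cy5 range was 21.2-fold for Hba-a1 and 11.4-fold to 14.9-fold for the other tested members. Such ranges were not computed over all probes.

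The 4 arrays of slide 1 were the dimmest for each tested member. There, Hba-a1 lay between 517 and 1680 units, against 2540 to 53900 on the other 18 arrays. The share of spots whose Cy5 stood well above background was 15.6% to 18.9% on these arrays (2 of each group) and reached 76.8% elsewhere. It had a median of 42.8% in normoxia and 35.5% in hypoxia.

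Against this share, the mean over the members had r = -0.44 and rho = -0.36 in normoxia (n = 12, permutation p = 0.152 and 0.256, adjusted over 2 relations 0.304 and 0.404). In hypoxia r was 0.26 and rho 0.30 (n = 10, permutation p = 0.468 and 0.404, adjusted p = 0.468 and 0.404). Without the 2 arrays farthest from the median share, r was -0.59 and 0.08. The part of array brightness in the members' differences was not tested further. Without slide 1 the median difference of the members was 0.43.

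**Figure D4:**
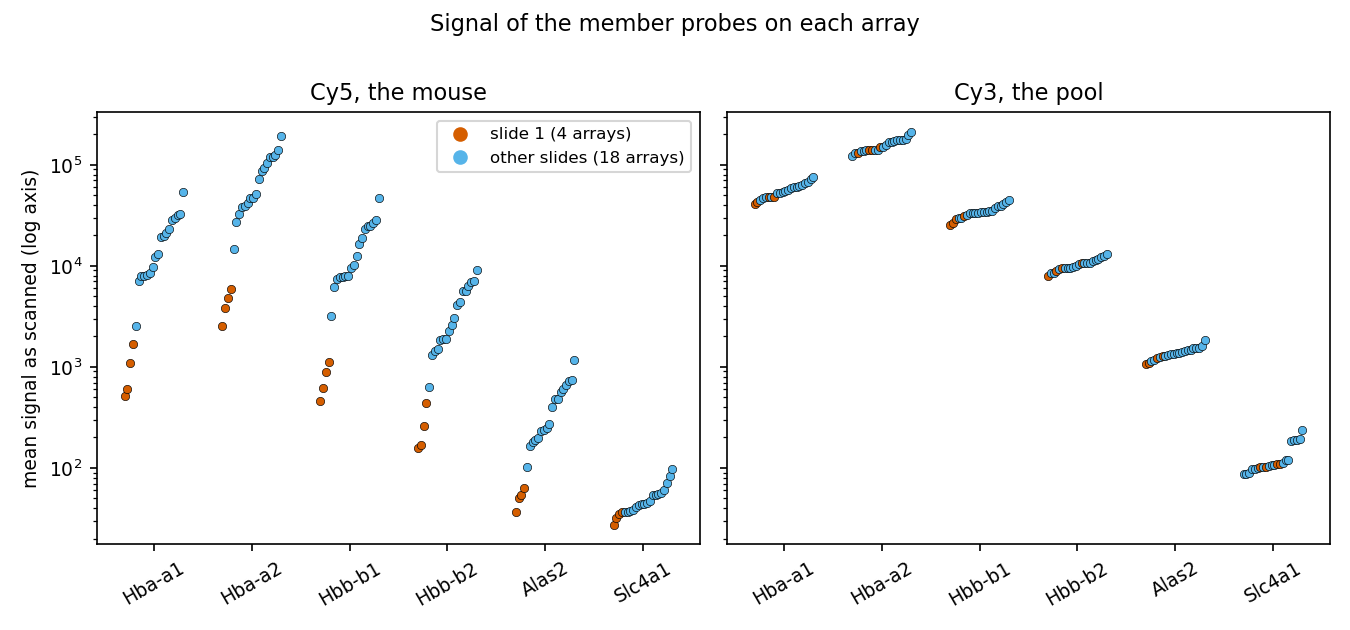
Mean signal as scanned of each member probe on the 22 arrays, on a log axis, in Cy5 (the mouse, left) and Cy3 (the pool, right), ordered within each gene, with the 4 arrays of slide 1 in orange. The Cy5 points of Hba-a1 span 517 to 53900 units and those of slide 1 lie at the low end, while its Cy3 points span 41000 to 76000.

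The size of the members' difference rested on the normalization within arrays. When each array was centred on its median, with no loess, the differences were 0.25 ± 0.68 for Hba-a1 (SE), 0.00 for Hba-a2, -0.04 for Hbb-b1, 0.11 for Hbb-b2 and 0.07 for Alas2. The SD of Hba-a1 within groups then came to 1.57 in normoxia and 1.78 in hypoxia, against 0.41 and 0.45 after loess. In the deposited value table the 5 differences ran from 0.16 (Hbb-b1) to 0.44 ± 0.50 (Hba-a1, SE), all above 0. Differences between arrays in that table followed Cy5 over Cy3 with r from 0.95 to 1 over its spots, so that it carries the same direction.

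**Figure D5:**
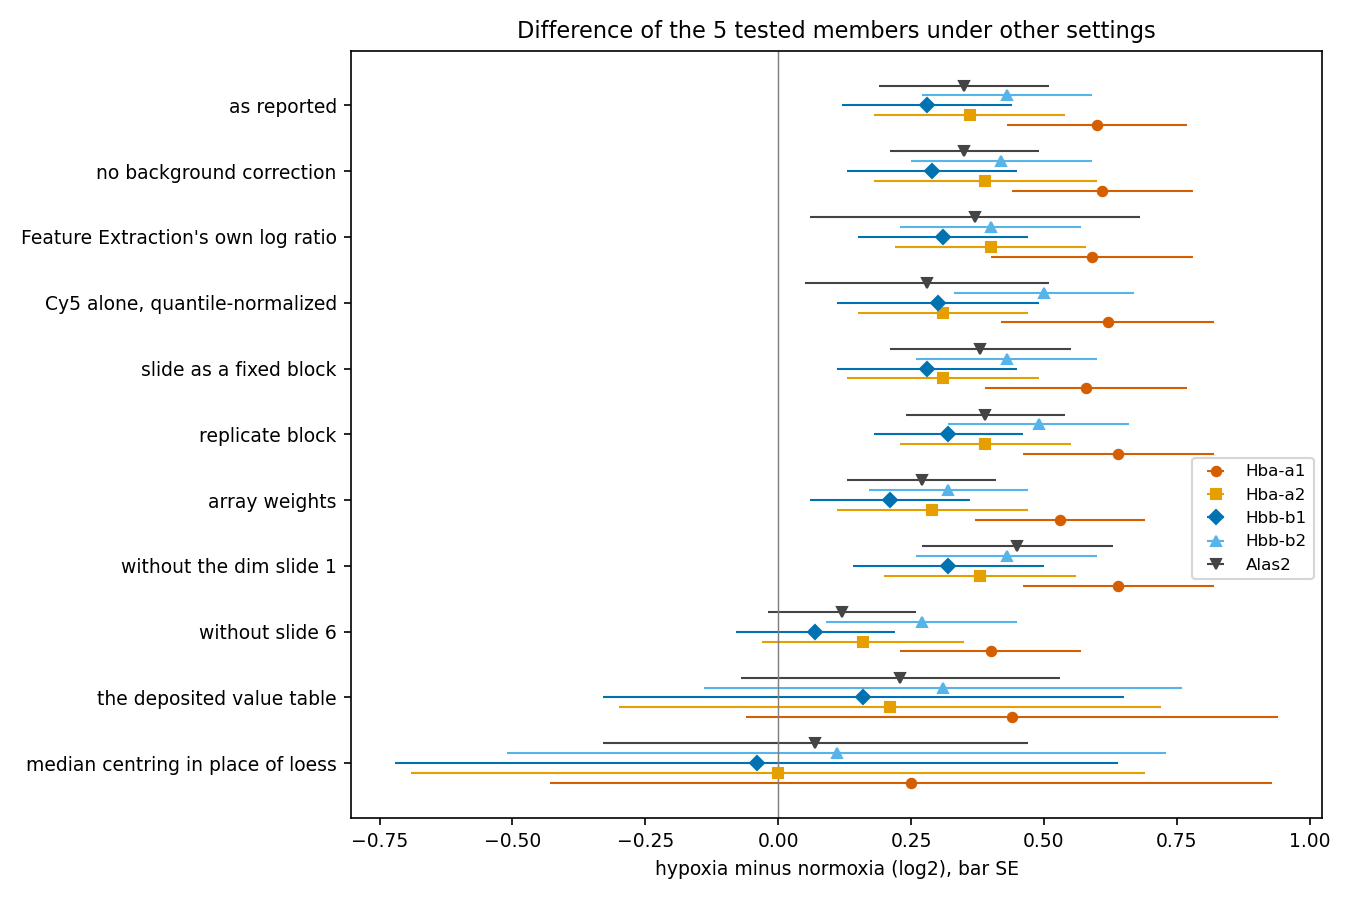
Hypoxia minus normoxia of the 5 tested members on the log2 scale, with SE bars, as reported (top row) and under other ways of processing. The values stay above 0 in all rows but the last, where Hbb-b1 is at -0.04 and Hba-a2 at 0.00 with SEs over 0.6, and they are lowest otherwise without slide 6 and in the deposited value table.

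Other genes of the red cell were given from lists that were set with earlier results known, each gene by its brightest tested probe. In none of them did a gene pass limma's adjusted threshold (background 0%). Of the other globin genes and their partners, the embryonic globins Hba-x and Hbb-bh1 and Ahsp, the chaperone of free alpha chains, were above background on 0 arrays. Of 21 genes of the red cell membrane and its skeleton 8 were tested, 5 above 0 and 3 below, with a median of 0.05. Rhd, Kel, Icam4 and Add2 were above background on 0 arrays. The pointed-end actin cap Tmod1 differed by 0.28 ± 0.15 and the membrane protein Gypc by 0.12 ± 0.09 (SE, adjusted p = 0.969 and 0.988). Tmod1 was above background on 11 arrays.

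Of the red cell enzymes and genes of late maturation, 14 of 19 were tested, with 6 above 0, 8 below and a median of -0.04. Bpgm, which makes the 2,3-bisphosphoglycerate that lowers the oxygen affinity of hemoglobin, differed by 0.21 ± 0.13 (SE, adjusted p = 0.985) and had r = 0.67 with the members' mean over 22 arrays, the highest of the 14, whose median r was 0.07. Mkrn1, a ubiquitin ligase, differed by 0.28 ± 0.12 (SE, adjusted p = 0.881), and its other tested probe by -0.02.

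Of 12 erythroid regulators 7 were tested, 3 above and 4 below 0, with a median of 0.00. The repressor Gfi1b differed by -0.16 ± 0.08 and the stem cell factor receptor Kit by 0.20 ± 0.10 (SE, adjusted p = 0.969 for each). Gfi1b was above background on 10 arrays, the fewest that allowed a test. Epo, the hormone that drives red cell production, was above background on 2 arrays and not tested. Heme synthesis and its iron supply had 18 of 18 genes tested, 9 above and 9 below 0, with a median of 0.00. Apart from Alas2, Urod differed by -0.22 ± 0.09 and Steap3, a ferric reductase, by -0.23 ± 0.10 (SE, adjusted p = 0.868 and 0.923). Fech, which puts iron into heme, differed by 0.06 ± 0.11 and Tfrc, the transferrin receptor, by 0.05 ± 0.07 (its other tested probe by -0.12).

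Among genes that clear hemoglobin and heme or handle the iron, 12 of 14 tested lay above 0, with a median of 0.04. The iron exporter Slc40a1 differed by 0.25 ± 0.11 and the heme oxygenase Hmox1 by 0.22 ± 0.11 (SE, adjusted p = 0.881 and 0.952). The hemoglobin binder Hp differed by 0.14 ± 0.24 and the hemoglobin receptor Cd163 by 0.02 ± 0.10. Cd163 was above background on 10 arrays and the heme binder Hpx on 3 arrays. Of globins outside red cells, Cygb differed by -0.11 ± 0.08 (SE, adjusted p = 0.988), while Mb was above background on 0 arrays and Ngb on at most 3.

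Markers of other cells of the blood and tissue were set beside the members. Of 18 platelet genes 9 were tested, 8 above 0, with a median of 0.06. Their mean level ran from -0.25 to 0.09 in normoxia and from -0.25 to 0.17 in hypoxia. Ppbp, a chemokine of platelet granules that was above background on 12 arrays, differed by 0.17 ± 0.10. Its r with the members' mean was 0.62, where the list's median r was 0.28. Mmrn1, a platelet and endothelial protein, was above background on 0 arrays. Medians were 0.03 over 6 neutrophil genes, 0.06 over 6 B cell genes and -0.06 over 9 T and NK cell genes, and their median r with the members' mean was -0.06, 0.20 and 0.16. Gzma, a granule protease of killer cells, differed by 0.27 ± 0.10 (SE, adjusted p = 0.848) with r = 0.60.

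In the tissue lists, 8 of 9 smooth muscle genes lay above 0 with a median of 0.34, and their mean level ran from -1.12 to 0.15 in normoxia and from -0.73 to 0.19 in hypoxia. Tagln differed by 0.47 ± 0.16 and Acta2 by 0.34 ± 0.12 (SE, adjusted p = 0.771 and 0.799), with r of 0.57 and 0.48 with the members' mean. The list's median r was 0.22, and Cnn1, with the list's largest difference, had 0.96 ± 0.37 (SE, adjusted p = 0.851) and r = 0.22. Of 12 macrophage genes 9 lay above 0 (median 0.11, range of the mean level -0.39 to 0.05 in normoxia and -0.34 to 0.19 in hypoxia), with C1qb at 0.39 ± 0.11. Of 13 endothelial genes 8 lay above 0 (median 0.02), with the receptor Kdr at 0.23 ± 0.07 (its other tested probe at -0.17), and the 13 adipocyte genes had a median of 0.02. The part of these cells in the members' differences was not tested.

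Over the 22 arrays, the gene whose log2 ratio was most like the members' mean was Zdhhc22, a protein acyltransferase gene, with r = 0.90. The measure was Pearson's r over 12511 genes with a symbol and a value on all 22 arrays, whose median r was 0.06 and 99th percentile 0.54. After subtraction of each slide's mean it was 0.93, and within normoxia and hypoxia 0.84 and 0.90. Zdhhc22 differed by 0.48 ± 0.19 between groups (SE, limma adjusted p = 0.851). Its probe shares no run of more than 9 bases with any tested member probe on either strand. Binding of its probe to a member's transcript was not tested.

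The next genes were Unc93a2 (r = 0.84), the beta globin Hbb-bs (r = 0.82) and the alpha globin pseudogene Hba-ps4 (r = 0.73, above background on 12 arrays). They were followed by the amino acid transporter Slc7a8 (0.72), Mafk (0.71), which pairs with the erythroid factor Nfe2, the zinc transporter Slc30a7 (0.71), Synpo2 (0.71), Dnlz (0.70) and the TGF-beta inhibitor Smad7 (0.68). Within normoxia and hypoxia taken separately, r was 0.85 and 0.39 for Synpo2 and 0.83 and 0.45 for Hba-ps4. It was 0.71 and 0.51 for Mafk and 0.62 and 0.46 for Smad7. For the other genes just named it was at least 0.6 in each group. The lowest r over the 22 arrays were those of Lrrc51 (-0.70), the transcription factor Gtf2i (-0.69) and the lipid droplet protein Plin3 (-0.67). Within normoxia and hypoxia these were -0.41 and -0.88, -0.53 and -0.72, and -0.56 and -0.58. The longest run shared by any of these 13 probes with a tested member probe was 10 bases. These probes were not compared with the members' whole transcripts. These r describe likeness over arrays that share a normalization.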

How the data were processed

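The deposited scanner files hold Cy5 and Cy3 intensity per spot, as scanned with no normalization; the software was Agilent Feature Extraction 10.7.3.1, as the submitters' processing notes and the file headers state. Their log10 ratio and the deposited value table of log2 values (33845 spots, each array's median 6.299) were alternatives, and the authors' normalization of that table is not given in the sources. Mean signals were background-corrected (normexp, offset 50) and loess-normalized within arrays in limma 3.58.1 under R 4.3.3, with flagged spots left out, saturated ones kept and the spots of a probe averaged. Probes well above background in Cy5 on 10 or more arrays, with 2 or more values in each group (21442 probes of 16578 genes), were fitted with group alone (lmFit, eBayes) and adjusted by Benjamini-Hochberg at 0.05. The number of arrays limits the precision (median SE 0.098). The fit was tested on simulated data whose changes were larger than the members' differences and which had no slide effects. That test therefore does not bear on differences of the members' size. Names were updated through RefSeq (GRCm38.p6): 27235 probes by accession, 3581 by symbol and 565 by synonym. Named genes were the members, a fixed set of globin, heme and clearance genes, up to 3 tested genes with the smallest p in a list, the 10 genes most like the members' mean and the 3 least like it. Members and lists were chosen with earlier results of these data known. Results for some genes of the lists are not reported here.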

Additional observations from a re-analysis of the deposited data

Results flagged for a closer look

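In the hypoxia group, the highest and lowest of the 10 values of each of 66 named genes were compared with their nearest neighbour, and a gap past Dixon's 95% critical value was marked; chance marks about 1 in 20 groups. None of the 6 red cell genes was marked. Among the other genes, 6 were. Tfrc, the transferrin receptor, was highest in replicate 10 at 0.17, with the next mouse at -0.02. The smooth muscle gene Cnn1 was lowest in replicate 2 at -1.82, with the next at -0.57, and that mouse was the highest for the mean of the red cell genes. The sperm genes Smcp and Prm1 were highest in replicate 10, at 1.13 and 0.88, with the next at -0.58 and -0.72. The neutrophil gene S100a9 was highest in replicate 6 at 2.20, with the next at 0.04, and Csf3r in replicate 7 at 1.60, with the next at 0.81. The normoxia group of 12 was not searched.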

How the results depend on the processing

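The median difference over the tested members was 0.36 and ran from 0.07 to 0.50 over 23 other settings and from 0.28 to 0.46 when 1 array was left out. None of the 5 members passed the adjusted threshold under any setting that tested it (Alas2 was not tested where Cy5 had to be above background on all arrays). Signs turned for 2 members, both with median centring in place of loess: Hba-a2 at 0.00 and Hbb-b1 at -0.04. For Hba-a1 the unadjusted p was under 0.05 in 21 of the 23 settings and in all 22 fits with 1 array left out (0.000326 to 0.00345). For Hbb-b2 it was so in 19 of 23 settings and 22 of 22 such fits, and for Alas2 in 12 of 22 and 16 of 22. For Hba-a1 the exceptions were median centring (limma unadjusted p = 0.711) and the deposited value table (p = 0.387). The settings on saturated spots, flagged spots, dim probes and the brightest probe left the log2 ratios of each member they tested as reported. They were therefore no separate check of the members, and these counts include them. The count of probes past the threshold, 0 as reported, was 1 with log ratios scaled to equal spread, 1 with Cy5 alone, 7 with Cy5 above background on all arrays (7452 probes tested), 2 without slide 1 and 10 with array weights, and 0 to 3 when 1 array was left out; the cause was not tested. With the replicate number as a replicate block over 10 pairs, the members' median was 0.39 and 0 probes passed. Whether equal numbers mark a pairing was not established. Correlations of same-numbered mice ran from -0.43 to 0.24, with 2 above 0.1 and 0 hypoxia mice closest to their own number. Slc4a1 was too dim for a test.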
